A study of Homo sapiens with 6 samples.

Results

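The genes described here are 51 parts of the DNA replication machinery, listed by name: origin licensing factors, the replicative helicase and its activators, the polymerases, the sliding clamp and its loader, strand-maturation enzymes, single-strand binding proteins, nucleotide supply enzymes and a few S-phase regulators and chromatin factors. Among the probe sets that name only the gene in question, the one brightest on average across the 6 arrays stood for it. All 51 were measured, of 19775 genes in all. The cells were DLD1, an established human colorectal adenocarcinoma line that carries a truncated APC and therefore a constitutively active Wnt/beta-catenin pathway. The 3 treated cultures received SAH-BCL9B at 10 µM for 12 h, a hydrocarbon-stapled peptide modelled on the BCL9 helix that binds beta-catenin, and the 3 control cultures received the DMSO vehicle for 12 h. Each culture was of this single line and was hybridised to 1 Affymetrix Human Genome U133 Plus 2.0 array. No control peptide entered the comparison, so the effects of this sequence and of any stapled peptide cannot be told apart.

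Replication begins when the origin recognition complex, with CDC6 and CDT1, loads the MCM2-7 ring onto DNA as an inactive helicase. At the start of S phase CDC45 and the GINS complex join the ring and activate it, polymerase alpha-primase lays down primers, and polymerases delta and epsilon extend them while held by the PCNA clamp. Transcription of many of these genes rises as cells leave G1, under E2F factors, so their mRNA is often read as a sign of proliferation in colorectal tumour cells.

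All values are log2 expression values on the scale the authors deposited, and the number of arrays limits their precision. The 10 intestinal epithelial markers, among them EPCAM, CDH1 and VIL1, were all above the array median of 6.6, and 4 of 6 fibroblast, all 4 measured immune and 3 of 4 endothelial markers were below it. CDX1 and CEACAM5, with vehicle means of 7.12 and 7.17, lay below the fibroblast marker COL1A1, at 8.55. Of the 10, VIL1 was called lower in SAH-BCL9B (change -0.86, limma adjusted p = 0.00303) and KRT8 higher (change 0.50, adjusted p = 0.0113). Over all 19775 genes, limma called 679 lower (3.43%) and 691 higher (3.49%) at a Benjamini-Hochberg adjusted p under 0.05, and the median change was 0.02. SAH-BCL9B 2 stood apart in its ACTB 3′ minus 5′ difference, at 0.735 against 1.20 to 1.38 in the other 5 arrays. Its GAPDH 3′ minus 5′ difference, 0.14, lay within the range of the other 5, 0.0855 to 0.169. The spread of values was lowest in SAH-BCL9B 2 and vehicle 3, with SDs of 2.424 and 2.433 against 2.474 to 2.494 in the others.

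Of the 51 replication genes, 11 fell in SAH-BCL9B (21.6%, against 3.43% of all genes) and 0 rose (against 3.49%), by limma with p-values adjusted over all 19775 genes. The 51 were chosen with earlier results of these data known, so these shares are a description. The genes that fell were spread over the machinery: PRIM1, CDC45, MCM7, RFC3, ORC3, MCM2, MCM3, CHAF1B, POLD1, RFC4 and TYMS, with log2 changes from -0.85 to -0.30. The median change of the 51 was -0.12 and 76.5% were negative, against a median of 0.02 and 44.9% over all genes. At an unadjusted p under 0.05, 20 were lower (9.22% of all genes were) and 4 higher (12.2% of all genes). All 3 SAH-BCL9B arrays lay below all 3 vehicle arrays in 25 genes (49.0%, against 12.0% of all genes) and above them in 6 (11.8%, against 16.3%), and the groups overlapped in 20. In bulk cultures, fewer cells in S phase and less of each mRNA per cell cannot be told apart. The p-values set each difference against the spread between these cultures, moderated over all genes. Whether the cultures were independent experiments or parallel dishes is not stated.

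Only PRIM1 kept its call in all 6 fits that each left out 1 array. It was the 1 gene called lower without SAH-BCL9B 1, without SAH-BCL9B 3, without vehicle 1 and without vehicle 2, and PRIM1 and MCM7 were called without vehicle 3. Without SAH-BCL9B 2 there were 10, made up of 9 of the 11 (all but POLD1 and TYMS) and POLA1. The number of calls over all genes, 1370 with all 6 arrays, was between 316 and 1426 in these fits, the highest without SAH-BCL9B 2. The lower calls over all genes, 679 with all 6 arrays, were 209, 259 and 429 without vehicle 1, 2 and 3. They were 327, 727 and 277 without SAH-BCL9B 1, 2 and 3. Where PRIM1 alone was called, the share of the 51 genes was much nearer to that of all genes than with all 6 arrays. The median change of the 51 genes was between -0.14 and -0.11 in these 6 fits. With probe sets whose names end in a plain _at preferred, POLD1, RFC4, TYMS and CHAF1B kept their changes and just missed the threshold (adjusted p from 0.0513 to 0.0578).

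**Figure D1:**
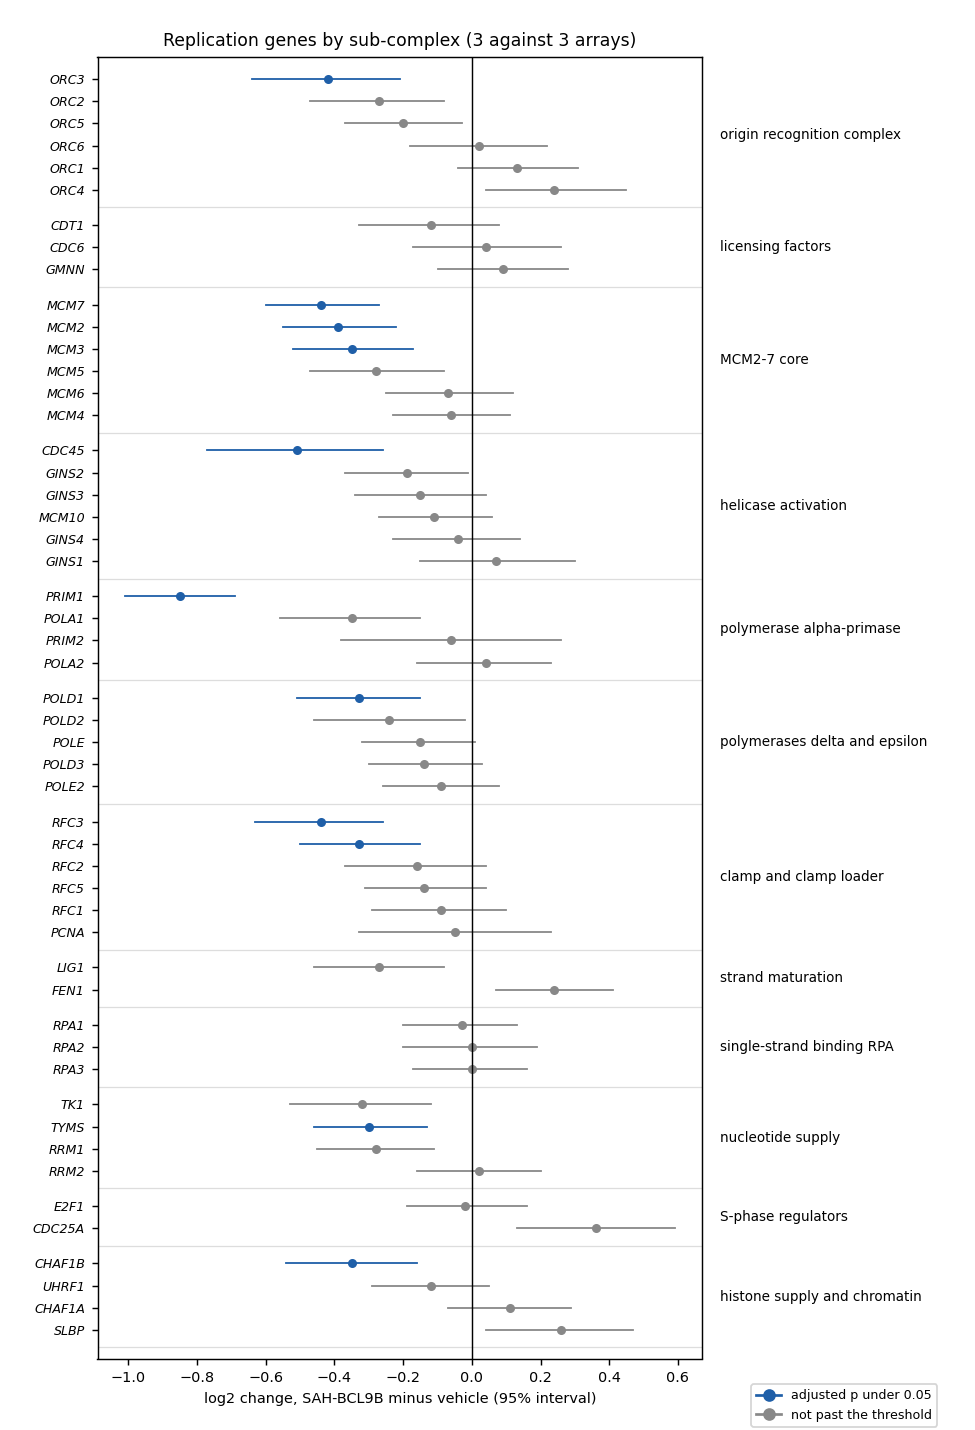
Log2 change (SAH-BCL9B minus vehicle, 3 arrays each) of the 51 replication genes grouped by sub-complex; points are changes, bars are 95% intervals from limma, and blue marks an adjusted p under 0.05 over all genes. The 11 blue points lie between -0.85 and -0.30, PRIM1 farthest from 0, and no gene to the right of 0 is blue.

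The promoters of these genes carry a well-known sequence feature, and the stretches below show it for genes that fell and for genes that did not, so that both can be seen side by side. RefSeq promoters of build GRCh38.p14, from 250 bases before to 50 after the annotated start, were matched for 45 of the 51 genes, the first listed one for each gene. The E2F-type motifs searched on both strands were TTTCCCGC, TTTGGCGC, TTTCGCGC and TTTGCCGC. In the first 5 lines below, from genes that fell, and the last 4, from genes that did not pass the test, capitals mark every such match within the stretch, so the reverse strand appears as GCGGGAAA or GCGGCAAA. Further matches lie outside the printed stretches in MCM7, at -187 to -180 from the start, and in MCM3, at -4 to 4. In MCM6 each capital run is TTTGGCGC overlapping the reverse of TTTCGCGC. The stretches lie at chr7:100101398-100101426 (MCM7, minus strand), chr13:33818074-33818121 (RFC3, plus), chr6:87590103-87590134 (ORC3, plus), chr6:52284889-52284936 (MCM3, minus), chr18:657594-657641 (TYMS, plus), chr2:135876502-135876615 (MCM6, minus), chr20:5126654-5126701 (PCNA, minus), chr20:33686386-33686438 (E2F1, minus) and chr3:48188434-48188481 (CDC25A, minus), all before the start of the gene.
MCM7: cggtcacgtggggggcgacgTTTCGCGCc
RFC3: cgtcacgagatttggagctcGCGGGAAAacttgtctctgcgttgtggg
ORC3: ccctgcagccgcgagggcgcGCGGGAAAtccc
MCM3: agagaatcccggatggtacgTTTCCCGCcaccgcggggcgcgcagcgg
TYMS: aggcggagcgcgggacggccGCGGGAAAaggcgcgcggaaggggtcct
MCM6: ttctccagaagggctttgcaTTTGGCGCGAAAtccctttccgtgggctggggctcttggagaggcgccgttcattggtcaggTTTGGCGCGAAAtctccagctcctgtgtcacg
PCNA: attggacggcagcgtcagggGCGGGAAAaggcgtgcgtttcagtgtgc
E2F1: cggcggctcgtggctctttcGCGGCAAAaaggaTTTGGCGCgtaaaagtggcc
CDC25A: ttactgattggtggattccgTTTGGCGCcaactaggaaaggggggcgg

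An E2F-type match was found in 21 of the 45 promoters (46.7%), against 908 of 27305 genes (3.33%) when 1 promoter per gene was counted. It was present in 6 of the 11 genes that fell (54.5%) and in 15 of the 34 matched genes that did not pass (44.1%). Of the 28 matches, 24 began before the start and 22 lay within 100 bases of it. CCAAT was present in 26 of 45 promoters (57.8%, against 35.7%), and the CHR letters TTTGAA or TTCGAA in 2 (4.44%, against 16.6%). The median GC content of the 45 promoters was 65.7%, against 58.3% over all, and its part in these shares was not tested. A match describes letters in this window and is not evidence of binding.

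The window of PRIM1, the gene with the largest fall, held no exact match to the E2F-type motifs searched. Its last 60 bases before the start, at chr12:56752324-56752383 on the minus strand, are shown beside the 5 other fallen genes above. They hold TTCCCGC, which is the searched TTTCCCGC without its first T. Shorter or inexact motifs were not searched for in any gene, so an E2F-like site in PRIM1 is not excluded.
PRIM1: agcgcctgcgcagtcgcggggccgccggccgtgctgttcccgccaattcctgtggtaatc

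In the origin recognition complex, the 6-subunit ATPase that marks origins, 1 of 6 genes fell and 0 rose, with a median change of -0.09. ORC3, a core subunit, had log2 values of 10.26, 10.25 and 10.26 in vehicle 1, 2 and 3 and of 9.68, 10.00 and 9.82 in SAH-BCL9B 1, 2 and 3. The vehicle arrays were nearly equal, the SAH-BCL9B arrays were spread out, and the groups did not overlap. The log2 change of ORC3 was -0.42 ± 0.09 (SE), or 1.34-fold lower (limma adjusted p = 0.0363, and up to 0.135 with 1 array left out). ORC2 and ORC5 were lower in all 3 SAH-BCL9B arrays by -0.27 and -0.20 (adjusted p = 0.0957 and 0.157), while ORC1, the largest ATPase subunit, was higher in all 3 by 0.13 (adjusted p = 0.384). ORC4, another ATPase subunit, read 12.19, 12.21 and 12.16 in vehicle and 12.55, 12.28 and 12.46 in SAH-BCL9B. Its groups did not overlap either, in the opposite direction to ORC3, with a change of 0.24 (95% interval 0.04 to 0.45, adjusted p = 0.158). Its other probe set gave the opposite sign, -0.16, so the direction of ORC4 depends on the probe set. ORC6 had a change of 0.02 (adjusted p = 0.952).

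Among the licensing factors, 0 of 3 passed in either direction, also at an unadjusted p under 0.05, and the median change was 0.04. CDT1, which brings the MCM ring to origins, had the largest change among the probe sets used, from 9.54, 9.77 and 9.61 in vehicle to 9.44, 9.53 and 9.59 in SAH-BCL9B, a difference of -0.12 (95% interval -0.33 to 0.08, adjusted p = 0.518). CDC6, the ATPase that completes loading, changed by 0.04 (adjusted p = 0.876), and GMNN, the CDT1 inhibitor geminin, by 0.09 (adjusted p = 0.641). The groups overlapped in all 3 genes for the probe sets used. CDC6's other probe set, nearly as bright, read 10.01, 10.00 and 9.81 in vehicle and 9.74, 9.76 and 9.66 in SAH-BCL9B, without overlap, a change of -0.22, so the direction of CDC6 depends on the probe set.

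All 6 genes of the MCM2-7 ring, the helicase that unwinds DNA at the fork, had negative changes, with a median of -0.31, and 3 of them fell. MCM7 read 11.30, 11.28 and 11.33 in vehicle and 10.85, 10.92 and 10.83 in SAH-BCL9B. Its 3 vehicle arrays stood clear of all 3 treated arrays, and the change was -0.44 ± 0.07, or 1.35-fold lower (adjusted p = 0.0134, up to 0.0718 with 1 array left out). MCM2 went from 11.21, 11.30 and 11.27 to 10.84, 10.88 and 10.91, a change of -0.39 ± 0.07, or 1.31-fold lower (adjusted p = 0.0197, up to 0.0871). MCM3 went from 11.40, 11.47 and 11.37 to 11.02, 11.14 and 11.04, a change of -0.35 ± 0.08, or 1.27-fold lower (adjusted p = 0.0344, up to 0.135). In both, each treated array lay below each vehicle array.

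The other 3 MCM subunits did not pass. MCM5, at 10.82, 10.96 and 10.94 in vehicle and 10.59, 10.74 and 10.55 in SAH-BCL9B, also had no overlap, with a change of -0.28 (95% interval -0.47 to -0.08, adjusted p = 0.101). MCM4 and MCM6, which with MCM7 form a trimer of the ring, had changes of -0.06 (95% interval -0.23 to 0.11) and -0.07 (-0.25 to 0.12). Differences in response between subunits were not tested.

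Of the 6 helicase activation genes, 1 fell and 0 rose, with a median change of -0.13. CDC45, which binds the ring to form the active helicase, read 9.72, 9.68 and 9.54 in vehicle and 8.96, 9.33 and 9.10 in SAH-BCL9B. SAH-BCL9B 2 was the highest treated array and still below every vehicle array. The change of CDC45 was -0.51 ± 0.11, or 1.43-fold lower (adjusted p = 0.0322, up to 0.135 with 1 array left out). The 4 GINS subunits, which join CDC45 on the ring, ranged from -0.19 for GINS2 (adjusted p = 0.215, no overlap) to 0.07 for GINS1, with GINS3 at -0.15 and GINS4 at -0.04. MCM10, an initiation factor, was at -0.11 with no overlap (adjusted p = 0.481), but its other 2 probe sets gave 0.02 and 0.12. GINS2 also has a probe set of the opposite sign, at 0.05.

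PRIM1, the catalytic subunit of primase, fell most of the 51 genes, and its rank was 90 from the lowest change among 19775 genes. It read 10.56, 10.61 and 10.53 in vehicle and 9.72, 9.73 and 9.71 in SAH-BCL9B. The arrays of each group lay close to one another and far from the other group. The change of PRIM1 was -0.85 ± 0.07, or 1.80-fold lower (adjusted p = 0.00117, at most 0.0152 with 1 array left out). It came from 1 probe set.

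The other subunits of polymerase alpha-primase, which makes the RNA-DNA primers, did not pass, and the median of the 4 was -0.21. POLA1, the polymerase catalytic subunit, went from 9.72, 9.77 and 9.60 to 9.28, 9.48 and 9.27, with no overlap and a change of -0.35 (95% interval -0.56 to -0.15, adjusted p = 0.0583). PRIM2, the regulatory primase subunit, read 7.51, 7.99 and 7.46 in vehicle and 7.56, 7.62 and 7.61 in SAH-BCL9B. Vehicle 2 was the highest array of PRIM2 and the other 5 were close together, so its change of -0.06 had a wide 95% interval of -0.38 to 0.26 and was 0.11 without vehicle 2. POLA2, the B subunit, changed by 0.04 (adjusted p = 0.879).

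The 5 genes of polymerases delta and epsilon, which copy the lagging and leading strands, all had negative changes, with a median of -0.15, and 1 fell. POLD1, the catalytic subunit of delta, read 9.47, 9.52 and 9.37 in vehicle and 9.14, 9.16 and 9.08 in SAH-BCL9B. No treated array reached the lowest vehicle array, vehicle 3, and the change was -0.33 ± 0.08, or 1.25-fold lower (adjusted p = 0.0463). POLD1 missed the threshold when any 1 array was left out (adjusted p up to 0.180). POLD2, POLD3 and POLE also had no overlap, at -0.24, -0.14 and -0.15 (adjusted p from 0.186 to 0.324), and POLE2 was at -0.09 with overlapping groups.

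Of the clamp and its loader, 2 of 6 genes fell, both loader subunits, and the median change was -0.15. RFC3 went from 10.64, 10.78 and 10.69 in vehicle to 10.21, 10.34 and 10.23 in SAH-BCL9B, a change of -0.44 ± 0.08, or 1.36-fold lower (adjusted p = 0.0178, up to 0.0773 with 1 array left out). RFC4 went from 11.77, 11.77 and 11.69 to 11.37, 11.48 and 11.40, a change of -0.33 ± 0.07, or 1.25-fold lower (adjusted p = 0.0421, up to 0.174). In both genes the groups were apart, and SAH-BCL9B 2 was the highest of the treated arrays. The second probe set of RFC3 gave -0.50, and with all 41091 probe sets tested both passed (adjusted p = 0.0356 and 0.0413). The mean of its 3 probe sets missed the threshold, at -0.23 (adjusted p = 0.298), the third being one whose mean lay below the array median and whose change was 0.26.

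PCNA, the clamp that the loader places on DNA, did not pass the test. It read 13.30, 13.39 and 13.22 in vehicle and 13.33, 13.00 and 13.43 in SAH-BCL9B. The treated arrays lay on both sides of the vehicle arrays, SAH-BCL9B 2 the lowest and SAH-BCL9B 3 the highest, and the change was -0.05 (95% interval -0.33 to 0.23, adjusted p = 0.883), or 0.08 without SAH-BCL9B 2. RFC1, RFC2 and RFC5 were at -0.09, -0.16 and -0.14. RFC2's other probe set, nearly as bright, read 9.76, 9.83 and 9.69 in vehicle and 9.39, 9.36 and 9.53 in SAH-BCL9B. Its change was -0.34 without overlap, while the groups overlapped in the probe set used, so the size of RFC2's change depends on the probe set.

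Strand maturation, the joining of Okazaki fragments, gave opposite signs in its pair of genes, and 0 of 2 passed, although both had an unadjusted p under 0.05. LIG1, the ligase, went from 9.74, 9.70 and 9.81 to 9.41, 9.58 and 9.43, a change of -0.27 (95% interval -0.46 to -0.08, adjusted p = 0.0955). FEN1, the nuclease that trims flaps, went from 11.62, 11.71 and 11.74 to 11.90, 11.92 and 11.95, a change of 0.24 (95% interval 0.07 to 0.41, adjusted p = 0.105). Neither gene's groups overlapped, and FEN1's other probe set also gave 0.24.

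The 3 subunits of RPA, which coats single-stranded DNA, had changes within 0.03 of 0, and 0 of 3 passed, also at an unadjusted p under 0.05. RPA1 read 12.91, 12.97 and 12.91 in vehicle and 12.90, 12.93 and 12.86 in SAH-BCL9B, a change of -0.03 (95% interval -0.20 to 0.13). RPA2 and RPA3 each had a change of 0.00, with intervals from -0.20 to 0.19 and from -0.17 to 0.16. The groups overlapped in all 3.

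Of the 4 nucleotide supply genes, 1 fell, and 3 lay lower in every treated array, with a median of -0.29. TYMS, thymidylate synthase, read 13.57, 13.55 and 13.53 in vehicle and 13.22, 13.25 and 13.29 in SAH-BCL9B. The groups were well apart, with a change of -0.30 ± 0.07, or 1.23-fold lower (adjusted p = 0.0469). It missed the threshold when any 1 array was left out (adjusted p up to 0.191), and the mean of its 3 probe sets gave -0.12 (adjusted p = 0.496).

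TK1, thymidine kinase of the salvage route, went from 11.27, 11.31 and 11.07 to 10.88, 10.92 and 10.88, without overlap, a change of -0.32 (adjusted p = 0.0681). RRM1, the large subunit of ribonucleotide reductase, went from 13.31, 13.34 and 13.24 to 12.99, 12.98 and 13.06, also without overlap, a change of -0.28 (adjusted p = 0.0619). RRM2, the small subunit, had a change of 0.02 (95% interval -0.16 to 0.20). Its other probe set read 13.30, 13.43 and 13.26 in vehicle and 13.12, 13.00 and 13.16 in SAH-BCL9B, a change of -0.23 in which the groups did not overlap, so the reading of RRM2 depends on the probe set.

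Of the S-phase regulators, 0 of 2 passed in either direction, with CDC25A at an unadjusted p under 0.05. CDC25A, the phosphatase that activates CDK2 at S-phase entry, went from 9.19, 9.12 and 9.08 to 9.41, 9.68 and 9.38. Every treated array was above every vehicle array, SAH-BCL9B 2 the highest, and the change was 0.36 (95% interval 0.13 to 0.59, adjusted p = 0.0759). CDC25A's other 2 probe sets, both dimmer, gave 0.21 and 0.01. In both the groups overlapped and SAH-BCL9B 2 was the lowest array, and the mean of all its probe sets gave 0.19. E2F1, a transcription factor of many replication genes, changed by -0.02 (95% interval -0.19 to 0.16).

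Of the 4 histone supply and chromatin genes, 1 fell, and the median was 0.00. CHAF1B, a subunit of the CAF-1 complex that deposits histones behind the fork, went from 8.46, 8.56 and 8.63 to 8.17, 8.28 and 8.16, a change of -0.35 ± 0.08, or 1.27-fold lower (adjusted p = 0.0467, up to 0.146 with 1 array left out). Its groups did not overlap. CHAF1A, the partner subunit, was higher in all 3 treated arrays with the probe set used, at 0.11 (adjusted p = 0.489). CHAF1A's other 3 probe sets changed by 0.01 to 0.02, with overlapping groups. SLBP, which binds histone mRNA, was also higher in all 3 treated arrays, at 0.26 (95% interval 0.04 to 0.47, adjusted p = 0.156). UHRF1, which links replication to DNA methylation, was at -0.12 (adjusted p = 0.435).

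**Figure D2:**
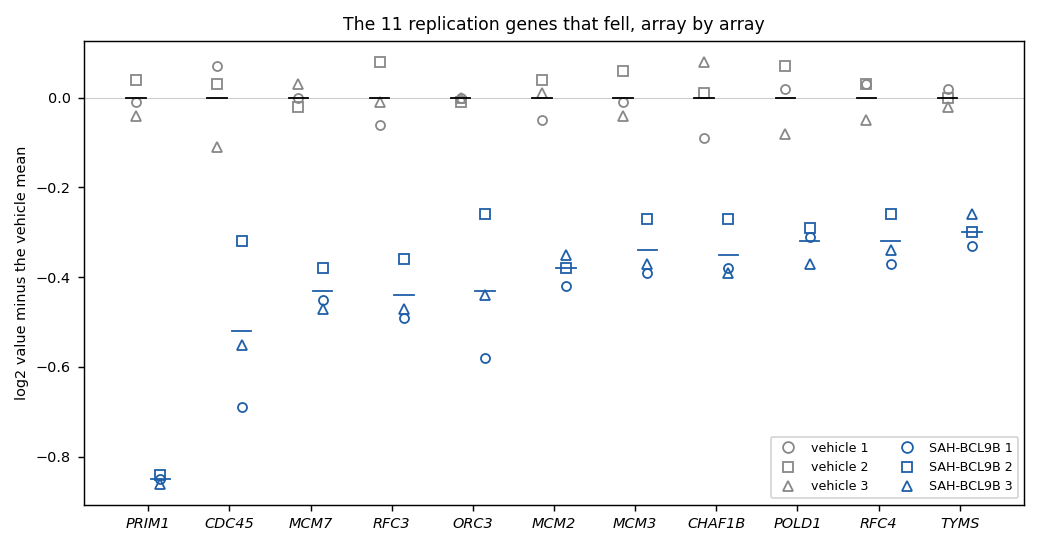
Log2 value minus the gene's vehicle mean in each of the 6 arrays for the 11 replication genes that fell; grey symbols are vehicle arrays, blue symbols SAH-BCL9B arrays, and bars are group means. In each gene all 3 SAH-BCL9B arrays lie below all 3 vehicle arrays, and in CDC45 and ORC3 the treated arrays spread most.

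The median of the replication genes was below the vehicle range in each treated array. The median over the 51 genes of the value minus the vehicle mean was -0.161, -0.114 and -0.129 in SAH-BCL9B 1, 2 and 3, and -0.004, 0.037 and -0.034 in vehicle 1, 2 and 3. Over all genes the same medians were between -0.023 and 0.08, with SAH-BCL9B 2 the highest. Of the 51 genes, 39, 37 and 37 lay below their vehicle mean in the 3 treated arrays, and 29, 11 and 35 in vehicle 1, 2 and 3, so this count does not separate vehicle 3 clearly from the treated arrays.

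The MCM2-7 genes had medians of -0.35, -0.22 and -0.36 in the treated arrays, with SAH-BCL9B 2 nearest to vehicle. The nucleotide supply genes had medians of -0.32, -0.30 and -0.25 in the same arrays. RPA medians were -0.03, 0.03 and -0.07, within or near the vehicle range of -0.03 to 0.04. The part of the ACTB difference in SAH-BCL9B 2, and of the low spread in SAH-BCL9B 2 and vehicle 3, was examined in 2 ways. These arrays were left out, and fits took these measures as covariates. With both arrays left out, 11 replication genes were called lower, 9 of them among the 11 above, and TYMS and CHAF1B missed the threshold (adjusted p = 0.0894 and 0.0664). Over all genes, 690 were called lower in that fit, against 679 in the main fit. With the array SD as covariate, 16 were called lower, with all 11 above among them. The lower calls over all genes also grew in that fit, to 1154. With the ACTB difference as covariate, 12 were called lower (771 over all genes), 9 of them among the 11. There POLD1 and TYMS missed the threshold (limma adjusted p = 0.0549 and 0.067).

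**Figure D3:**
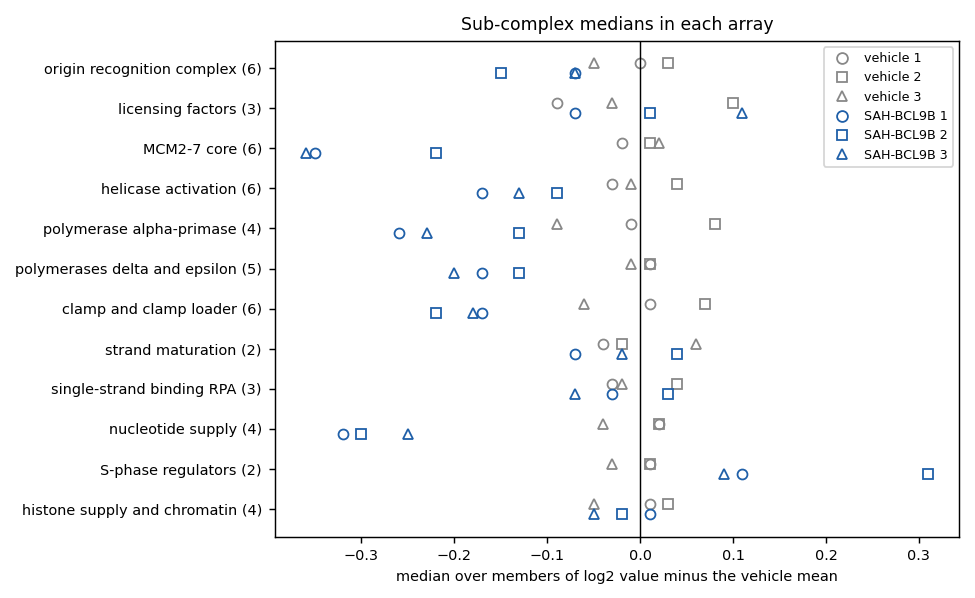
Median over the genes of each sub-complex of the log2 value minus the vehicle mean, in each of the 6 arrays; grey symbols are vehicle arrays and blue symbols SAH-BCL9B arrays, with the number of genes in brackets. The MCM2-7 core and nucleotide supply lie between -0.36 and -0.22 in all 3 treated arrays. The clamp and its loader reach -0.22 in SAH-BCL9B 2, and polymerase alpha-primase -0.26 and -0.23 in SAH-BCL9B 1 and 3. RPA, licensing factors, strand maturation and histone supply and chromatin mix with vehicle, and S-phase regulators lie above vehicle, at 0.11, 0.31 and 0.09.

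The array holds 96 single-gene probe sets for the 51 genes, and 28 genes have more than 1. Of the 45 probe sets not used above, 31 had the same sign of change as the one used and 14 the opposite sign, and 65 of all 96 were negative. Of the 11 genes that fell, 8 have a single probe set. MCM7's other probe set gave -0.46. TYMS's others gave -0.30 and 0.24, the latter from a dim probe set with a mean of 6.61 against the array median of 6.6. ORC2 showed the reverse case, since its second probe set gave -0.50 and passed when all 41091 probe sets were tested (limma adjusted p = 0.0389).

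**Figure D4:**
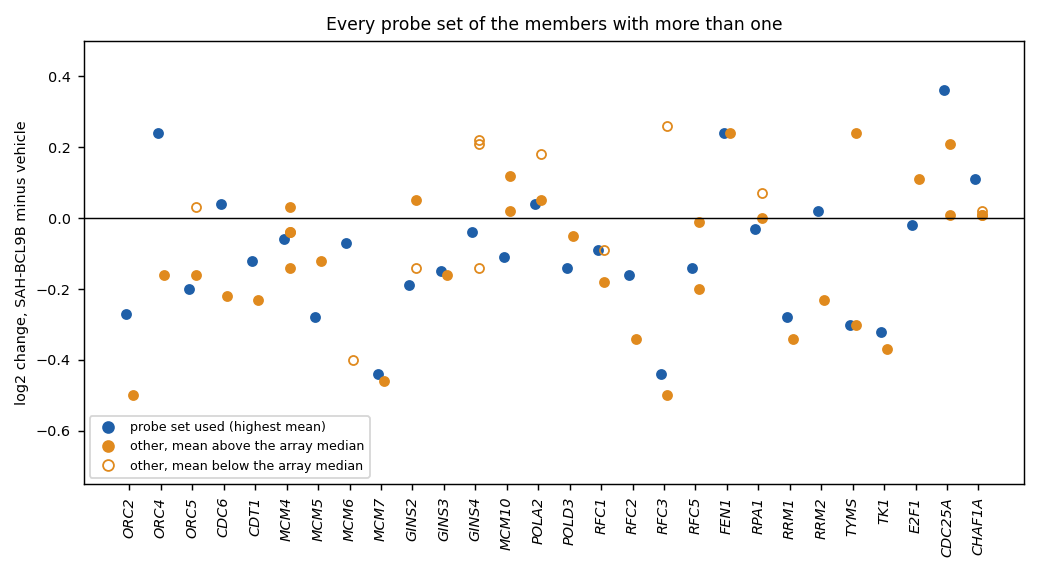
Log2 change (SAH-BCL9B minus vehicle) of every single-gene probe set of the replication genes that have more than 1; blue points are the probe set used for the gene and orange points the others, open where their mean lay below the array median. Of the 45 others, 31 lie on the same side of 0 as the one used and 14 on the other side.

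The wider replication pathway was read from a list of 61 further genes, of which 59 were measured. This list too was chosen with earlier results of these data known, and is not an independent look. Of the 59, 7 fell (11.9%, against 3.43% of all genes) and 1 rose (1.69%, against 3.49%), with a median change of -0.04. The 3 with the largest falls were E2F8, CDC7 and E2F2. E2F8, a repressive E2F, went from 10.21, 10.19 and 9.97 to 9.30, 8.85 and 9.30, a change of -0.98 ± 0.14, or 1.97-fold lower (adjusted p = 0.00803). CDC7, the kinase that with DBF4 fires loaded MCM rings, went from 9.94, 10.03 and 9.90 to 9.23, 9.15 and 9.37, a change of -0.71 ± 0.09, or 1.63-fold lower (adjusted p = 0.0047). E2F2, an activating E2F, went from 9.05, 9.01 and 9.30 to 8.41, 8.40 and 8.47, a change of -0.69 ± 0.10, or 1.61-fold lower (adjusted p = 0.00786). In all 3 genes the groups were far apart, and each kept its call with any 1 array left out, although the mean of E2F2's probe sets gave -0.21 (adjusted p = 0.217).

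The partner DBF4 had a change of -0.06 (95% interval -0.28 to 0.15). RNASEH2B, a subunit of the nuclease that removes ribonucleotides from DNA, fell by 0.55 on the log2 scale (adjusted p = 0.0111) and was missed without vehicle 1 (0.059) or vehicle 2 (0.0503). TIMELESS, of the fork protection complex, fell by 0.43 (adjusted p = 0.0174), PCLAF, a PCNA-binding factor, by 0.38 (adjusted p = 0.0226), and CCNA2, cyclin A2, by 0.34 (adjusted p = 0.0461). CCNE1, cyclin E1, rose, from 9.90, 9.87 and 9.80 to 10.26, 10.35 and 10.21, a change of 0.42 ± 0.08 (adjusted p = 0.0194). The change of TIMELESS was -0.06 (adjusted p = 0.833) with plain _at probe sets preferred and -0.24 (0.0968) with the mean of its probe sets, and that mean gave 0.34 (0.212) for CCNE1. The calls of TIMELESS, PCLAF and CCNE1 were kept without SAH-BCL9B 2 and lost without any other single array, and that of CCNA2 was lost without any one.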

How the data were processed

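The deposited values are log2 expression of 54675 probe sets in 6 arrays, made with RMA and affy according to the submitters' processing notes. Tool versions are not given in the sources used. RMA brings arrays to a common distribution, which hides a shift that most genes share, and it understates changes of dim probe sets. Of the probe sets, 41091 name 1 gene by GEO's platform annotation. Groups were compared by lmFit and eBayes of limma 3.58.1 under R 4.3.3 (two-sided, without covariates), with Benjamini-Hochberg adjustment over 19775 genes, a threshold of 0.05 and no filter on low values. Errors are moderated standard errors. The procedure was tried on simulated data with independent noise in each value, which cannot speak to effects shared across an array. Reading used data.table (version 1.17.8), and figures used Python 3.11.15 with matplotlib 3.10.9. Values in every array are given for each member past the threshold and for the largest change in each sub-complex without one. Further replication genes are named where they passed. Other genes shown array by array, and DBF4, were chosen after their values were seen. The members and lists were chosen with earlier results of these data known. Protein sequences were not analysed here. Alternatives were a filter on low values, a replicate block, other probe-set choices, other scalings and fits, and each array left out.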

Additional observations from a re-analysis of the deposited data

How the results depend on the processing

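The 11 lower calls became 17 with a filter on low values, 17 with a variance trend and robust fit, 7 with plain _at probe sets preferred, 5 with every probe set tested by itself, and 1 to 10 with 1 array left out. The 0 higher calls became 2 with the filter, 4 with trend and robust fit, and 1 each with array weights, the array SD as covariate or the ACTB difference as covariate. For the other replication genes, the 7 lower calls became 12 with the filter, 4 with the mean of probe sets, 11 with trend and robust fit and 3 to 7 with 1 array left out. Their 1 higher call became 3 with the filter, 2 with median centring, 4 with trend and robust fit, 5 with weights, 4 with the SD, 3 with ACTB, 2 without vehicle 3 and SAH-BCL9B 2, and 0 to 3 with 1 array left out. Over all genes, 1370 calls became 2271 with the filter, 2456 with trend and robust fit, 2172 with weights, 2441 with the SD and 316 to 1426 with 1 array left out. By direction, the 679 lower calls became 1011 with the filter, of 12261 genes, and 1075 with trend and robust fit. They became 633 with plain _at preferred, 514 with the mean of probe sets and 209 to 727 with 1 array left out. The 691 higher calls became 1260 with the filter, 819 with median centring, 1381 with trend and robust fit and 1114 with weights. They became 1287 with the SD, 716 with ACTB, 504 without vehicle 3 and SAH-BCL9B 2, and 107 to 699 with 1 array left out. Genes whose change turned sign all missed the threshold before and after. With the mean of probe sets these were RPA1 (0.01), CDC6 (-0.09), GINS4 (0.06), MCM10 (0.01), RRM2 (-0.11) and E2F1 (0.04). With plain _at preferred they were ORC4 (-0.16), CDC6 (-0.22), GINS2 (0.05), MCM10 (0.12) and RRM2 (-0.23). With a second quantile normalization, ORC6 came to 0.00 and RRM2 to -0.02, and RPA3 was at 0.00 with median centring or the SD. With weights POLA2 came to 0.00, PCNA to 0.02 and RRM2 to 0.00, and with ACTB POLA2 to -0.01, PCNA to 0.09, RRM2 to -0.03 and DBF4 to 0.02. Without vehicle 3 and SAH-BCL9B 2, POLA2 was at -0.06, PCNA at 0.04 and RRM2 at -0.02. With 1 array left out the range crossed 0 for ORC6 (-0.04 to 0.08), CDC6 (-0.03 to 0.10), POLA2 (-0.01 to 0.08), PRIM2 (-0.16 to 0.11), PCNA (-0.14 to 0.08), RPA2 (-0.03 to 0.06), RPA3 (-0.02 to 0.02), RRM2 (-0.03 to 0.06) and, by less than 0.01, E2F1 (-0.06 to 0.00) and DBF4 (-0.12 to 0.00). The cause of these moves was not tested.

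With the replicate number as a block, 1 member was called lower, 3 other replication genes lower, 0 higher and 296 genes in all. Whether same-numbered cultures were paired is not stated. Deviations of same-numbered arrays from their group means correlated at 0.24, -0.20 and -0.32. The highest correlation between a vehicle and a treated array was 0.42, for vehicle 3 and SAH-BCL9B 2. With groups of 3 such correlations constrain one another, so they cannot decide on pairing. PRIM1, E2F8 and CDC7 passed under every alternative run. Signal over background is not known for any gene, since the analysis started from summarised values.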
